A study of Mus musculus with 12 samples.

Results

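The Trim genes encode tripartite motif proteins, a family named for a RING finger, a B-box and a coiled coil placed in this order at the amino end. They were chosen by symbol: every protein-coding row of the count table whose mouse symbol is Trim followed by a digit, which gave 67 genes of the 36491 rows. Most members are ubiquitin ligases, in which the RING finger brings a ubiquitin-loaded enzyme to a substrate, and the domain at the carboxyl end picks the substrate. Some, among them Trim14, Trim16, Trim29, Trim44 and Trim66, lack a RING finger, so the family is wider than its ligases. In macrophages many members with a PRY-SPRY domain at the carboxyl end are known as interferon-induced genes that act in the sensing of viral nucleic acids, while other members act in neurons, muscle or chromatin. A cluster of them lies on mouse chromosome 7, which holds 16 of the 67.

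The samples were cells labelled as microglia, taken with CD11b magnetic beads (MACS) from the brains of wild-type male C57BL/6J mice aged 6 months. All mice had received a bone marrow transplant, with the head exposed to the irradiation (unshielded) or covered by a shield (shielded), then PLX5622 in food for 2 weeks and standard chow for 6 weeks. PLX5622 inhibits the CSF1 receptor and so depletes microglia. The challenge was 50 µg of LPS into the peritoneum, with saline in its place for the groups without LPS, and cells were collected after 6 hours. LPS (lipopolysaccharide) is the outer membrane component of Gram-negative bacteria that signals through TLR4. The groups are unshielded mice given LPS, unshielded mice without LPS, shielded mice given LPS and shielded mice without LPS, with 3 libraries each. Nothing in the labels says whether the 3 libraries of a group come from separate animals, so p-values measure only the spread between these libraries, which may be technical.

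Library totals were 56776710 to 60495968 counts in unshielded mice given LPS, 18090977 to 40792878 in unshielded mice without LPS, 29794946 to 40730784 in shielded mice given LPS and 28770354 to 42931839 in shielded mice without LPS. Libraries 2 and 3 of the shielded mice without LPS carry a treatment field that names LPS, against their titles, which set the groups here. In these libraries Trim30b stood at 5.33 and 3.79 CPM (depth-scaled counts, TMM), against 5.39 CPM in library 1 of the same group and 54.1 to 69.8 CPM in shielded mice given LPS. All 8 microglia markers were detected in every group, with a summed level of 7097 to 8035 CPM in unshielded mice given LPS, 9466 to 11740 CPM in unshielded mice without LPS, 11880 to 13100 CPM in shielded mice given LPS and 17200 to 20360 CPM in shielded mice without LPS. The 6 markers of marrow-derived macrophages summed to 80320 to 105400, 58370 to 88820, 2604 to 4455 and 6795 to 23940 CPM in the same 4 groups, most of it Apoe. The sum was higher in every unshielded library than in any shielded library, and so was each of the 6 except Clec12a, which had 26.0 to 34.1 CPM in unshielded mice given LPS, against 45.5 CPM in library 1 of the shielded mice without LPS. A bulk library cannot tell fewer cells of a type from less RNA per cell.

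The 4 Trim30 genes had the largest LPS effects among the antiviral members, and their promoter windows are shown to compare them, with the window of Trim21, which holds a pair of overlapping motif matches. The windows run from 250 bases before to 50 bases after the start, were matched by symbol and come from RefSeq on build GRCm38.p6, on the minus strand of chromosome 7. They are chr7:104465144-104465443 for Trim30a, chr7:104507800-104508099 for Trim30d, chr7:104358597-104358896 for Trim30b, chr7:104400729-104401028 for Trim30c and chr7:102565433-102565732 for Trim21. Capitals mark GAAA, 2 bases of any kind and GAAA again, the core of the interferon-stimulated response element bound by interferon regulatory factors, or its reverse complement (TTTC, 2 bases, TTTC).
Trim30a: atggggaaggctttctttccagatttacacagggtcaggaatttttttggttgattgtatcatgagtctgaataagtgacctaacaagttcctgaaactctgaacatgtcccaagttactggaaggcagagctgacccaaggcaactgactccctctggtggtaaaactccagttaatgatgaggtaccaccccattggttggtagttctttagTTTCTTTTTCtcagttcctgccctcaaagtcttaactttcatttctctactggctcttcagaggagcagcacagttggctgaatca
Trim30d: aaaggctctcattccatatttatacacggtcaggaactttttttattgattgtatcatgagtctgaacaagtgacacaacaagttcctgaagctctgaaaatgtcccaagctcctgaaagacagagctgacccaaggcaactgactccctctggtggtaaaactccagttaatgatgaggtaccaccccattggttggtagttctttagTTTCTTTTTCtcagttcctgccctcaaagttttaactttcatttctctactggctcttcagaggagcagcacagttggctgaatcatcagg
Trim30b: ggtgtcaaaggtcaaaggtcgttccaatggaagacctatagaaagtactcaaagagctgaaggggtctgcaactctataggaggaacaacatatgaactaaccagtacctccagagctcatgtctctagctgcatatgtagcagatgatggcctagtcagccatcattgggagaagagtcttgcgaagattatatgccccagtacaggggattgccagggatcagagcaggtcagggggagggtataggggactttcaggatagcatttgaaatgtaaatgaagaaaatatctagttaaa
Trim30c: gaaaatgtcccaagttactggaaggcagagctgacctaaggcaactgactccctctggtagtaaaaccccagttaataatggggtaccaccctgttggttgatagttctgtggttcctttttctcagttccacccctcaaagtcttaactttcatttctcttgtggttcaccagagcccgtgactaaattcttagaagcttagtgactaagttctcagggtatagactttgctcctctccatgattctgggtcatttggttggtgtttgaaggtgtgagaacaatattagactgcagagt
Trim21: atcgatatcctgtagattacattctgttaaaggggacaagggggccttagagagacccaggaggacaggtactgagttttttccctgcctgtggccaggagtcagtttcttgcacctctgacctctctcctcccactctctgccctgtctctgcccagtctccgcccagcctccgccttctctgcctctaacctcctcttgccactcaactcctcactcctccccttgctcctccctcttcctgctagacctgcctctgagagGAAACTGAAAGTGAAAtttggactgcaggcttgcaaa
The Trim30a and Trim30d windows were 90.8% identical over their alignment, and the match lies 36 bases before the start in Trim30a and 41 bases before it in Trim30d. A further Trim30a window that RefSeq lists, starting at 104446076, also holds the motif. The Trim30b and Trim30c windows were 50.6% identical to each other and hold no match, which says only that these letters are not in these windows.

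LPS changed many Trim genes in both arms, and in both directions. Of the 67 members, 50 had enough counts to be tested. In unshielded mice 14 members rose and 11 fell after LPS by edgeR's quasi-likelihood test (adjusted p under 0.05), against 24.3% of all 18875 genes tested that rose and 18.8% that fell, so 28% and 22% of the tested members are near the background. In shielded mice 15 rose and 15 fell, 30% each, against 32.4% and 35.1% of all genes. The median log2 fold change of the members was -0.02 in unshielded and -0.07 in shielded mice, beside -0.06 and -0.14 over all genes. Of the members, 12 rose in both arms, 7 fell in both, none was called in opposite directions and 14 were called in neither. These patterns were not counted over all genes, of which 43.1% were called in unshielded and 67.5% in shielded mice. With library totals in place of TMM scaling, which moved the median of all genes to -0.36 in unshielded and -0.49 in shielded mice, 9 members rose and 16 fell in unshielded mice, and 13 rose and 29 fell in shielded mice. Of all 18875 genes, 2656 rose and 6520 fell in unshielded mice, and 4042 rose and 9131 fell in shielded mice, with that scaling. The count of fallen members was 7 in unshielded mice without unshielded LPS library 2, and 9 in shielded mice without the libraries with conflicting fields. When the conflicting libraries were grouped by their treatment field instead of their titles, no member was called in either arm by edgeR (at an unadjusted p under 0.05, 15 in unshielded and 0 in shielded mice).

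**Figure D1:**
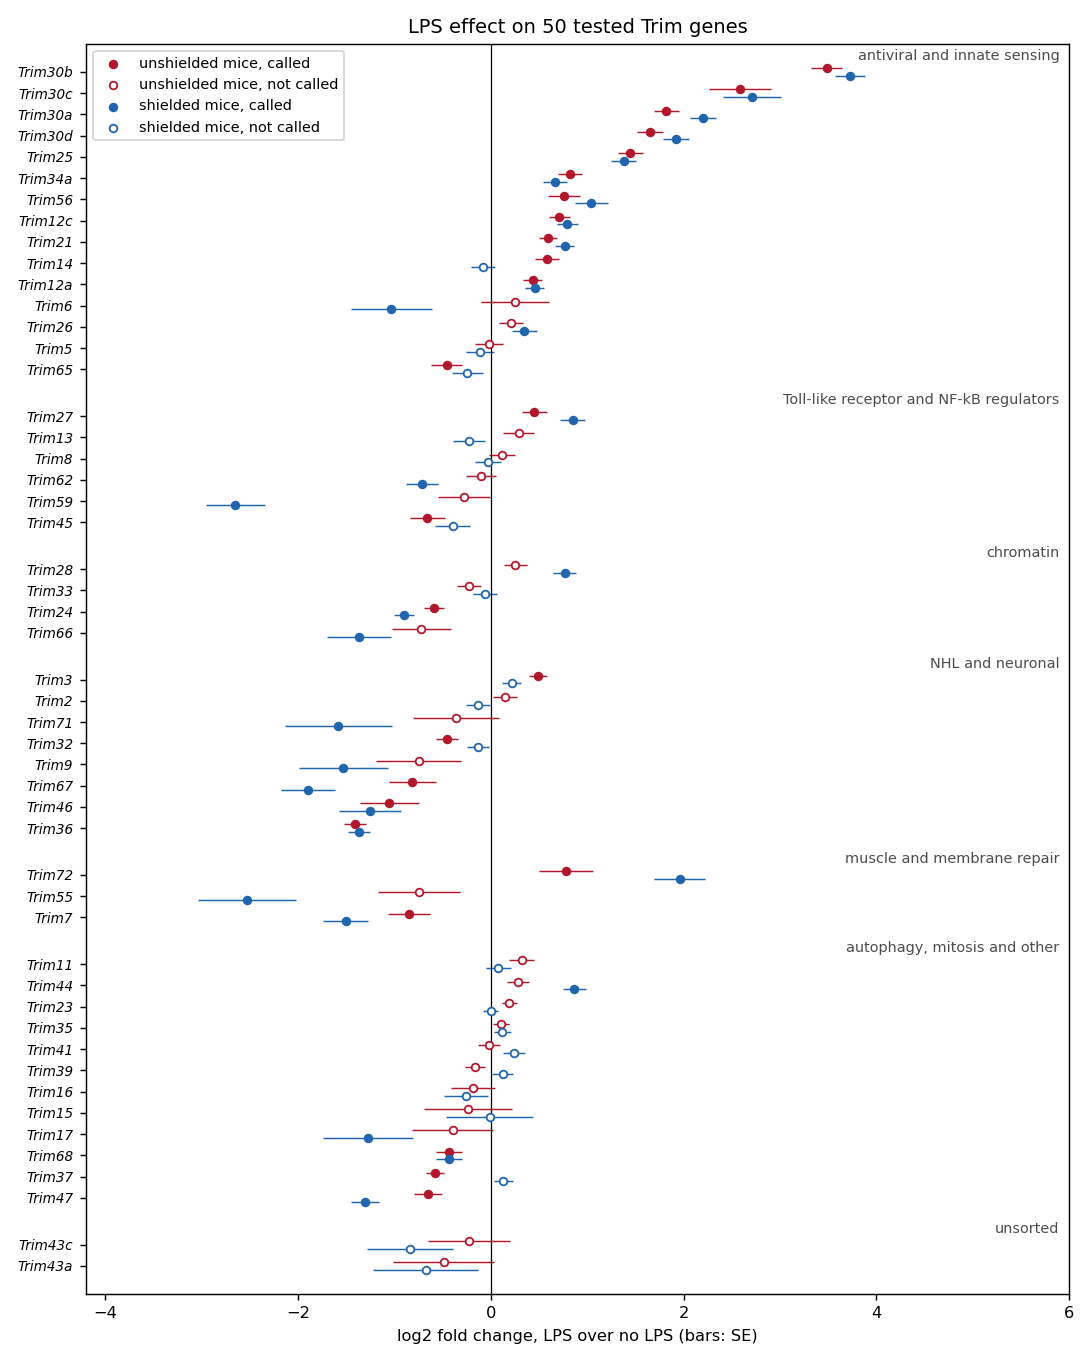
Log2 fold change of LPS over no LPS (x axis) for the 50 tested Trim genes (rows, grouped by role), in unshielded mice (red) and shielded mice (blue), with bars for the standard error and filled points for called genes. The 4 Trim30 genes stand at the right, between 1.65 and 3.72, and Trim59 at the far left in shielded mice, at -2.65.

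The antiviral and innate sensing members rose more often than they fell. Of the 17 listed, 15 were tested, and 11 rose and 1 fell in each arm, with a median log2 fold change of 0.71 in unshielded and 0.77 in shielded mice. The share that rose was 73.3% of those tested in each arm, against 24.3% of all genes in unshielded and 32.4% in shielded mice, and the share that fell was 6.67%, against 18.8% and 35.1%. Trim30a encodes an interferon-induced mouse protein known to restrain NF-kB signalling from Toll-like receptors by driving the loss of TAB2 and TAB3, and Trim30b, Trim30c and Trim30d are its neighbours and relatives.

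Trim30a had 247, 282 and 292 CPM in unshielded mice given LPS, against 72.8, 77.2 and 82.2 CPM in unshielded mice without LPS. In shielded mice it had 421, 320 and 306 CPM with LPS, against 83.4, 77.0 and 66.8 CPM without. All LPS libraries lay above all libraries without LPS, and the 2 groups without LPS overlapped. The rise was 3.54-fold in unshielded mice (log2 fold change 1.82 ± 0.13 SE, adjusted p = 6.87e-07) and 4.61-fold in shielded mice (2.21 ± 0.13, adjusted p = 6.70e-08).

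Trim30b showed the largest fold change of the family in either arm. It had 27.3, 29.7 and 29.8 CPM in unshielded mice given LPS, against 2.21, 2.75 and 2.85 CPM in unshielded mice without LPS. Shielded mice had 69.8, 67.4 and 54.1 CPM with LPS, against 5.39, 5.33 and 3.79 CPM without. The 4 groups did not overlap, and each unshielded group lay below its shielded counterpart. The rise was 11.2-fold in unshielded mice (3.49 ± 0.16 on the log2 scale, adjusted p = 3.37e-08) and 13.2-fold in shielded mice (3.72 ± 0.15, adjusted p = 9.41e-09).

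Trim30d had 97.3, 114 and 109 CPM in unshielded mice given LPS, against 30.8, 35.6 and 35.9 CPM in unshielded mice without LPS. Shielded libraries held 184, 140 and 139 CPM with LPS, against 44.9, 42.7 and 35.0 CPM without. LPS libraries lay above those without LPS throughout, with log2 fold changes of 1.65 ± 0.13 in unshielded (adjusted p = 1.34e-06) and 1.92 ± 0.13 in shielded mice (adjusted p = 1.46e-07). Trim30c was the lowest of the 4, with 3.24, 3.39 and 4.46 CPM in unshielded mice given LPS, against 0.456, 0.963 and 0.519 CPM in unshielded mice without LPS. Among shielded mice the levels were 13.4, 8.75 and 7.14 CPM with LPS, against 1.68, 1.62 and 1.19 CPM without. Its groups with and without LPS did not overlap within an arm, and the log2 fold changes were 2.58 ± 0.33 in unshielded (adjusted p = 4.58e-05) and 2.71 ± 0.30 in shielded mice (adjusted p = 6.57e-06). With the level of neuron and oligodendrocyte markers as a covariate, the shielded value was 2.01. This level was lower in all LPS libraries than in all libraries without LPS of the same arm, so the covariate and LPS cannot be fully told apart.

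These copies can share reads. Of the 50-base windows of exon sequence, 5.98% in Trim30a and 7.49% in Trim30d also occur in another Trim gene, while the share was 0.406% in Trim30b and 0.66% in Trim30c. The shares are higher in other families, at 28.8% for Trim12c, 29.5% for Trim5 and 39.8% for Trim34a, so the values of these genes are uncertain. The call of each Trim30 gene held in both arms when each library was left out in turn.

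**Figure D2:**
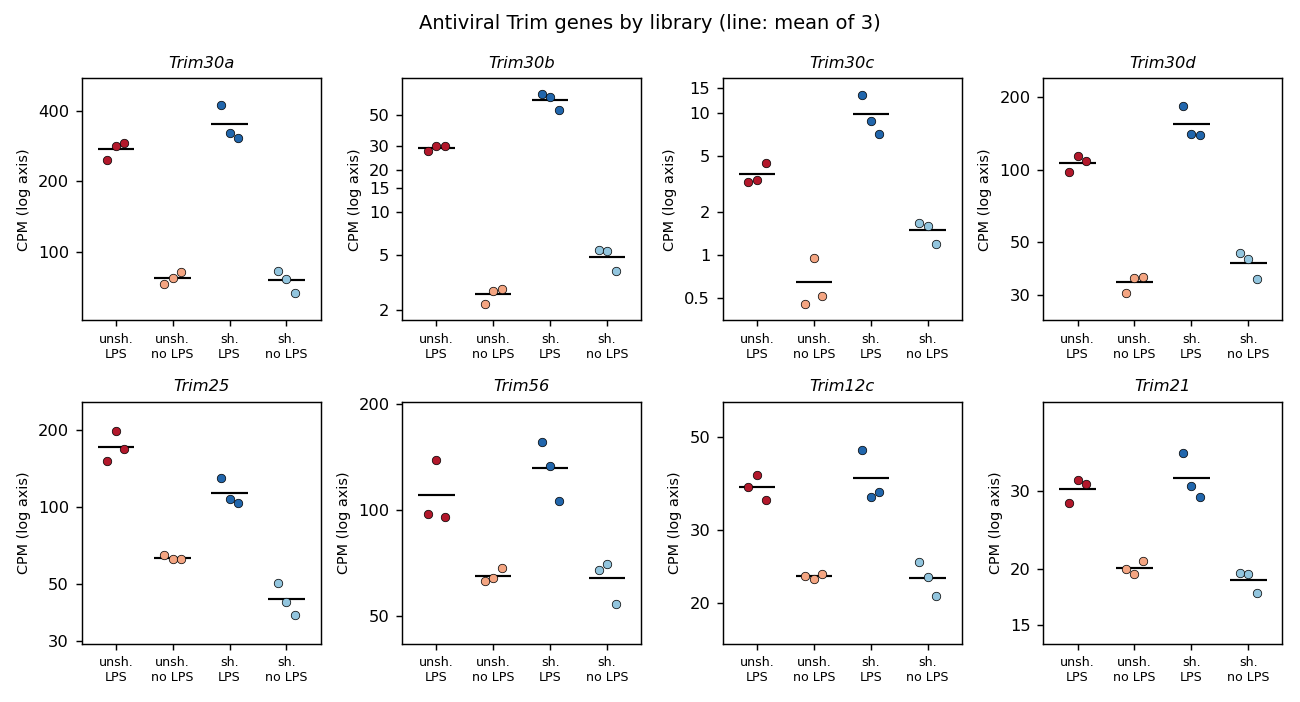
CPM on a log axis for 8 antiviral Trim genes in each of the 12 libraries (points), by group (unshielded LPS, unshielded no LPS, shielded LPS, shielded no LPS), with a line at the mean of 3. For Trim30b the unshielded LPS libraries sit between 27.3 and 29.8 CPM and the shielded LPS libraries between 54.1 and 69.8 CPM, while for Trim25 the unshielded LPS libraries are the highest.

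Trim25, a ligase that attaches ubiquitin chains to the RNA sensor RIG-I, had the next largest LPS effect among the antiviral members. It had 151, 198 and 168 CPM in unshielded mice given LPS, against 64.5, 62.3 and 62.3 CPM in unshielded mice without LPS. In shielded mice it had 129, 107 and 104 CPM with LPS, against 50.4, 42.4 and 37.9 CPM without. The 4 groups did not overlap, and here each unshielded group lay above its shielded counterpart, the reverse of Trim30b. LPS raised it 2.73-fold in unshielded mice (1.45 ± 0.13, adjusted p = 3.20e-06) and 2.60-fold in shielded mice (1.38 ± 0.13, adjusted p = 1.60e-06).

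Smaller rises in both arms came from Trim56, Trim34a, Trim12c, Trim21 and Trim12a. Trim56, which in human cells takes part in signalling through cGAS and STING, averaged 110 ± 24.6 CPM in unshielded mice given LPS and 65.0 ± 2.89 CPM in unshielded mice without LPS (SD, n = 3 each). In shielded mice it averaged 132 ± 24.9 CPM with LPS and 63.9 ± 8.67 CPM without. Its log2 fold change was 0.76 ± 0.17 in unshielded and 1.04 ± 0.17 in shielded mice (adjusted p = 0.00285 and 0.000171), and the shielded value was 0.42 (adjusted p = 0.0252) with the neural covariate. Trim21, the cytosolic antibody receptor that marks antibody-coated viruses for destruction, rose by 0.59 ± 0.10 in unshielded and 0.77 ± 0.10 in shielded mice on the log2 scale. Trim34a rose by 0.82 ± 0.12 and 0.66 ± 0.12, Trim12c by 0.71 ± 0.11 and 0.79 ± 0.11, and Trim12a by 0.43 ± 0.10 and 0.45 ± 0.10 in unshielded and shielded mice. Trim12a and Trim12c are mouse relatives of human TRIM5, the factor that restricts retroviral capsids. The Trim12a rises were 0.13 in unshielded and 0.11 in shielded mice with library totals as scaling, no longer called, and the shielded call was also lost with the neural covariate (0.21, adjusted p = 0.225).

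The remaining antiviral members gave calls in 1 arm at most. Trim14, a RING-less adaptor that in human cells joins the mitochondrial antiviral adaptor MAVS, rose in unshielded mice alone by this test and is described with the differences between arms. Trim26, known to drive the loss of nuclear IRF3, had a log2 fold change of 0.21 in unshielded mice, not called, and rose by 0.35 ± 0.13 in shielded mice (adjusted p = 0.0283) with overlapping groups. The shielded value was lost without shielded LPS library 1 or 2 (0.22 and 0.37, adjusted p = 0.148 and 0.0582) and without library 1 or 3 of the shielded mice not given LPS (0.0826 and 0.0919), and was -0.01 with library totals and -0.13 with the neural covariate. Trim65, known to ubiquitinate the RNA sensor MDA5, fell by 0.46 ± 0.16 in unshielded mice (adjusted p = 0.0355), a call lost without unshielded LPS library 3 (adjusted p = 0.121), without unshielded library 2 or 3 without LPS (0.0798 and 0.0938) and without the libraries with conflicting fields (0.0617). Trim6 fell by 1.03 ± 0.42 in shielded mice (adjusted p = 0.043) at levels of at most 1.68 CPM in any library, and its groups overlapped. That call was lost without any 1 of the 3 shielded LPS libraries (adjusted p 0.0516 to 0.161), without shielded library 2 or 3 without LPS (0.0746 and 0.207) and with the neural covariate (-0.13). Trim5 was not called in either arm, at -0.02 and -0.11 in unshielded and shielded mice.

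Among the 8 regulators of Toll-like receptor and NF-kB signalling, 6 were tested, and 1 rose and 1 fell in unshielded mice, while 1 rose and 2 fell in shielded mice. With 16.7% higher in each arm and 16.7% and 33.3% lower, no share of the group lay above that of all genes (24.3% and 32.4% higher, 18.8% and 35.1% lower). Trim27, which binds the bacterial sensor NOD2 and leads to its degradation in human cells, had 52.6, 59.95 and 51.4 CPM in unshielded mice given LPS, against 42.0, 36.7 and 41.1 CPM in unshielded mice without LPS. Shielded mice had 96.0, 88.2 and 63.9 CPM with LPS, against 44.9, 46.8 and 45.9 CPM without. The groups with and without LPS did not overlap in either arm. The log2 fold change was 0.45 ± 0.13 in unshielded mice (adjusted p = 0.0127) and 0.85 ± 0.13 in shielded mice (adjusted p = 9.33e-05). Leaving out library 2 or 3 of the unshielded mice without LPS ended the unshielded call (adjusted p = 0.0883 and 0.0538), as did library totals as scaling (0.15, adjusted p = 0.183). Trim62, a ligase for the adaptor CARD9, fell by 0.71 ± 0.16 in shielded mice (adjusted p = 0.00214), or by 0.47 with the neural covariate (adjusted p = 0.149), and was at -0.10 in unshielded mice. Trim45 fell by 0.66 ± 0.18 in unshielded mice (adjusted p = 0.0112), a call lost without unshielded LPS library 2 (0.0519), and was at -0.40 in shielded mice. Its unshielded call was kept in 13 of the 15 alternatives other than the grouping by treatment field. Trim8 and Trim13 were not called in either arm, with log2 fold changes between -0.23 and 0.29. Trim59, the member that fell most in shielded mice, is described with the differences between arms.

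Among the 4 chromatin members of the TIF1 type, which bridge DNA-bound repressors or nuclear receptors to histone modifiers, Trim24 fell in both arms. It averaged 24.4 ± 3.15 CPM in unshielded mice given LPS and 36.7 ± 0.471 CPM in unshielded mice without LPS (SD, n = 3 each), a change of -0.59 ± 0.10 on the log2 scale (adjusted p = 0.000448). In shielded mice it averaged 19.9 ± 1.87 CPM with LPS and 37.1 ± 1.72 CPM without, a change of -0.90 ± 0.10 (adjusted p = 7.61e-06). Trim28, also known as KAP1 and the partner of KRAB zinc finger repressors that silence retroelements, had 208, 225 and 182 CPM in unshielded mice given LPS, against 178, 168 and 170 CPM in unshielded mice without LPS. Shielded libraries held 347, 312 and 248 CPM with LPS, against 172, 185 and 176 CPM without. The shielded groups did not overlap and Trim28 rose by 0.77 ± 0.12 (adjusted p = 0.000112), while the unshielded change of 0.25 ± 0.12 was not called. The difference between these LPS effects was -0.51 ± 0.17 and missed the threshold (adjusted p = 0.0611). Trim66 fell by 1.36 ± 0.33 in shielded mice (adjusted p = 0.00301), or by 0.24 with the neural covariate (adjusted p = 0.613), and without the conflicting libraries the adjusted p was 0.0509. Trim33 was at -0.23 and -0.06 in unshielded and shielded mice, not called.

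The 8 members with an NHL domain or neuronal roles fell more often than they rose, with 1 higher and 4 lower in unshielded mice and none higher and 5 lower in shielded mice. The lower calls are 50% and 62.5% of the group, against 18.8% and 35.1% of all genes. Neuron and oligodendrocyte markers were measured beside them. The 9 neuron markers summed to 129 to 243 CPM in unshielded mice given LPS, 303 to 352 CPM in unshielded mice without LPS, 36.5 to 181 CPM in shielded mice given LPS and 203 to 376 CPM in shielded mice without LPS. The 8 oligodendrocyte markers summed to 1058 to 1897, 1772 to 2280, 425 to 1323 and 1781 to 2808 CPM in the same order, and no marker of either list was at 0 in any library. LPS lowered 0 of the 9 neuron and 1 of the 8 oligodendrocyte markers in unshielded mice (median log2 fold changes -0.81 and -0.62), and 8 and 8 of them in shielded mice (-1.55 and -1.43). Their mean log2 CPM, the neural covariate, was 4.47 to 5.23 with LPS and 5.65 to 5.74 without in unshielded mice. In shielded mice it was 2.81 to 4.89 with LPS and 5.24 to 6.11 without. A call lost with this covariate therefore cannot be assigned to the markers or to LPS.

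Trim9, which steers axon branching in response to netrin, had 15.9, 11.4 and 17.3 CPM in unshielded mice given LPS, against 23.0, 26.3 and 25.4 CPM in unshielded mice without LPS. Among shielded mice the levels were 2.56, 4.59 and 13.5 CPM with LPS, against 20.7, 14.9 and 24.2 CPM without. Shielded LPS library 3 lay above the other two of its group, as it did for the neural markers. The log2 fold change in shielded mice was -1.53 ± 0.46 (adjusted p = 0.0129), or -2.47 without that library, and 0.03 (adjusted p = 0.924) with the neural covariate. The call was also lost without the conflicting libraries (adjusted p = 0.0746), and the unshielded change of -0.74 was not called. Trim67, its closest relative, fell by 0.81 ± 0.25 in unshielded mice (adjusted p = 0.0187) and by 1.89 ± 0.28 in shielded mice (adjusted p = 7.13e-05). With the neural covariate the shielded value was -1.08 (adjusted p = 0.012), and the unshielded call was lost (-0.48, adjusted p = 0.0527), as it was without unshielded LPS library 2 (0.0904).

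Trim46, which organises microtubules at the start of the axon, fell by 1.05 ± 0.31 in unshielded and 1.25 ± 0.32 in shielded mice (adjusted p = 0.0163 and 0.00447). The unshielded call needed library 2 of each unshielded group (adjusted p = 0.0869 without the LPS one and 0.0548 without the other), and the shielded value was -0.10 with the neural covariate (adjusted p = 0.814). Trim71, the LIN41 protein of stem cells, fell by 1.58 ± 0.56 in shielded mice (adjusted p = 0.0242) at levels of at most 0.607 CPM, and was at 0.02 with the covariate. It was not called without shielded LPS library 1 (-1.22, adjusted p = 0.103), without shielded library 3 without LPS (-0.97, 0.155) or without the conflicting libraries (-0.92, 0.295).

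**Figure D3:**
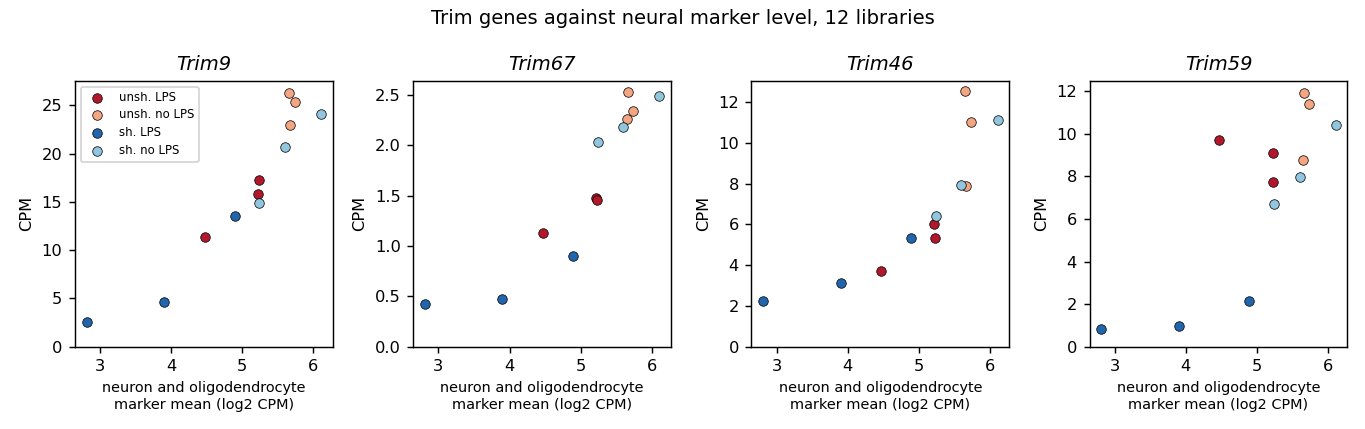
CPM of 4 Trim genes (y axis) against the mean log2 CPM of the neuron and oligodendrocyte markers (x axis) in the 12 libraries, coloured by group. The shielded LPS libraries lie at 2.81, 3.90 and 4.89 on the x axis and hold the lowest 3 values of Trim67 and Trim59, while Trim59 in unshielded LPS libraries stays between 7.73 and 9.71 CPM.

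Trim36, a ligase that binds microtubules, fell in both arms, by the same amounts with the neural covariate (-1.40 and -1.36). It had 12.2, 9.94 and 9.36 CPM in unshielded mice given LPS, against 27.7, 28.7 and 27.1 CPM in unshielded mice without LPS. In shielded mice it had 14.3, 13.3 and 15.4 CPM with LPS, against 35.8, 41.7 and 33.5 CPM without. LPS libraries were lower than all libraries without LPS, with log2 fold changes of -1.41 ± 0.11 and -1.36 ± 0.11 in unshielded and shielded mice (adjusted p = 1.49e-06 and 6.51e-07). The calls held in every alternative except the grouping by treatment field. Trim32, which carries an NHL domain and marks muscle and neuronal proteins for degradation, fell by 0.46 ± 0.11 in unshielded mice (adjusted p = 0.00585) and was at -0.13 in shielded mice. Trim3, an NHL member that binds actin motors in neurons, rose by 0.49 ± 0.10 in unshielded mice (adjusted p = 0.00141), was at 0.22 in shielded mice, and was not called in unshielded mice with library totals (0.18). Trim2 was not called in either arm.

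Of the 5 members known from muscle and membrane repair, 3 were tested, and their levels were low. Trim72, also called MG53, which seals membrane wounds in muscle, had 1.27, 1.33 and 1.10 CPM in unshielded mice given LPS, against 0.707, 1.01 and 0.490 CPM in unshielded mice without LPS. Shielded mice had 3.08, 4.39 and 2.88 CPM with LPS, against 0.884, 0.776 and 0.975 CPM without. The shielded groups lay well apart, and Trim72 rose 3.89-fold there (1.96 ± 0.27, adjusted p = 3.86e-05). The unshielded rise of 0.78 ± 0.28 (adjusted p = 0.0388) was lost without any 1 of the unshielded LPS libraries (adjusted p 0.0513 to 0.0981), without unshielded library 1 or 3 without LPS (0.12 and 0.202), without the conflicting libraries (0.0672) and with library totals (0.167). The 3 muscle markers summed to at most 5.42 CPM in any library, that being shielded LPS library 2, where Trim72 was also highest; their part in the result was not tested. Trim72 shares 27.6% of its exon bases with an antisense transcript. Trim7, a binding partner of glycogenin, fell by 0.85 ± 0.22 in unshielded and 1.5 ± 0.23 in shielded mice (adjusted p = 0.0072 and 0.000109). Trim55, a sarcomere-bound MuRF ligase, fell by 2.53 ± 0.51 in shielded mice (adjusted p = 0.000892), at 0.245 ± 0.265 CPM with LPS and 1.47 ± 0.426 CPM without (SD, n = 3 each), or by 3.79 without shielded LPS library 3. It was at -0.74 in unshielded mice, not called.

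Among the 16 members placed under autophagy, mitosis and other roles, 12 were tested. Trim47 fell in both arms. It had 36.4, 35.0 and 24.4 CPM in unshielded mice given LPS, against 54.5, 47.8 and 47.7 CPM in unshielded mice without LPS, a change of -0.65 ± 0.14 on the log2 scale (adjusted p = 0.00285). Shielded libraries held 20.7, 22.2 and 19.1 CPM with LPS, against 43.1, 54.6 and 54.7 CPM without, a change of -1.30 ± 0.15 (adjusted p = 7.82e-06). The groups with and without LPS did not overlap in either arm. The difference between these LPS effects was 0.65 ± 0.20 and missed the threshold (adjusted p = 0.0522). Trim47 shares 6.58% of its 50-base windows with another Trim gene and overlaps the exons of Trim65. Trim68 fell by 0.43 in each arm (SE 0.13 in unshielded and 0.14 in shielded mice, adjusted p = 0.0206 and 0.014). Of the 15 alternatives other than the grouping by treatment field, its call was kept in 10 in unshielded and 11 in shielded mice. Among the losses, its unshielded call was lost without unshielded LPS library 2 or 3 (adjusted p = 0.0559 and 0.0815) or unshielded library 2 without LPS (0.0561). Its shielded call was lost without shielded library 2 without LPS (0.0695), without the conflicting libraries (0.169) and when shielded libraries were paired by their replicate number, a block fitted to those 6 libraries (adjusted p = 0.0584). In that blocked fit Trim41 was called (adjusted p = 0.0371, against 0.0817 unblocked). Trim17, known for promoting the death of mouse neurons deprived of growth factor, fell by 1.27 ± 0.47 in shielded mice (adjusted p = 0.0289) with overlapping groups, was at -0.02 with the neural covariate, and was not called without shielded LPS library 1 or 2 or library 1 or 3 of the shielded mice not given LPS (adjusted p 0.0635 to 0.121). Its value was -2.07 without shielded LPS library 3. Trim11, Trim15, Trim16, Trim23, Trim35 and Trim39 were not called in either arm, nor were the low-count copies Trim43a and Trim43c.

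Few Trim genes differed between unshielded and shielded mice without LPS. The arms also differed in the summed markers of microglia and marrow-derived macrophages given above. The part of cell mix in the differences between arms, here and after LPS, was not tested. Of the 50 tested members, 2 were higher and 4 lower in unshielded than in shielded mice, against 3.98% and 6.85% of all genes tested, so the counts are near the background. Trim30b was lower in unshielded mice by 0.90 ± 0.16 on the log2 scale (adjusted p = 0.00294), or 1.87-fold, with the library values given above, and this was the 1 call that held in every alternative but the grouping by treatment field. Trim30c was lower by 1.28 ± 0.33 (adjusted p = 0.0261), Trim2 by 0.48 ± 0.13 (0.0266) and Trim36 by 0.41 ± 0.11 (0.0322), while Trim25 was higher by 0.53 ± 0.13 (0.0161) and Trim3 by 0.33 ± 0.10 (0.0491). Without the conflicting libraries none of these 5 was called (adjusted p 0.152 to 0.514). Each of the 5 was also lost on leaving out some libraries without LPS: Trim30c without unshielded library 1 or 3 or shielded library 1 or 2, Trim2 and Trim25 without unshielded library 1 or 3 or shielded library 2 or 3, and Trim36 and Trim3 without any 1 of them, except Trim36 without shielded library 3. The adjusted p in those fits ran from 0.0634 to 0.235. The values of log2 fold change in those fits stayed between -1.23 and -1.05 for Trim30c and between 0.45 and 0.54 for Trim25.

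After LPS more members differed between unshielded and shielded mice. Of the 50 tested, 12 were higher and 12 lower in unshielded than in shielded mice, 24% each, against 19.1% and 25.6% of all genes tested (44.6% in either direction), again near the background. Of the 6 members called without LPS, all but Trim2 were called again in the same direction. That overlap was not counted over all genes. Trim30b was lower by 1.14 ± 0.14 (adjusted p = 4.11e-05) and Trim30c by 1.40 ± 0.28 (0.00145), with Trim30d lower by 0.53 ± 0.13 (0.00484). Trim30a was lower by 0.35 ± 0.13 (adjusted p = 0.0411), a call lost without shielded LPS library 1 (0.137) or any 1 of the unshielded LPS libraries (0.0532 to 0.102). It was also lost with library totals (0.0626), without the filter on low counts (0.0836), with a replicate block over all 12 libraries (0.0517), and with the compared groups fitted alone (0.128 without and 0.186 with the block). With the neural covariate Trim30a and Trim30d were not called (-0.11 and -0.29, adjusted p = 0.53 and 0.0604). Trim25 was higher by 0.60 ± 0.13 (0.00201) and Trim3 by 0.60 ± 0.10 (0.00035), and both held when any library was left out.

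Other members that were lower in unshielded mice after LPS were Trim72 (-1.48 ± 0.26, adjusted p = 0.000535), Trim44 (-0.70 ± 0.12), Trim27 (-0.60 ± 0.13), Trim37 (-0.58 ± 0.10), Trim28 (-0.56 ± 0.12) and Trim36 (-0.45 ± 0.11), which held without each library. Trim26 (-0.37 ± 0.13) and Trim32 (-0.34 ± 0.11) did not: Trim26 was lost without shielded LPS library 1 or 2 or unshielded LPS library 1 or 3, and Trim32 without shielded LPS library 1 or 2 or unshielded LPS library 2 or 3 (adjusted p 0.051 to 0.115). Members that were higher and held without each library were Trim59 (2.73 ± 0.30, adjusted p = 2.70e-05), Trim6 (1.70 ± 0.40), Trim67 (1.17 ± 0.28), Trim7 (0.99 ± 0.23), Trim62 (0.84 ± 0.16) and Trim47 (0.63 ± 0.14). Trim55 (1.68 ± 0.52, adjusted p = 0.0201) was lost without shielded LPS library 1 or 2 or unshielded LPS library 2 (0.056 to 0.0848), and was 2.91 without shielded LPS library 3. Trim66 (0.95 ± 0.33) was lost without shielded LPS library 1 or 2 or unshielded LPS library 1 or 3 (0.0721 to 0.15), Trim24 (0.29 ± 0.10) without shielded LPS library 1 or 3 or unshielded LPS library 1 or 2 (0.0727 to 0.216), and Trim14 (0.45 ± 0.13) without shielded LPS library 2 or unshielded LPS library 1 (0.107 and 0.0904). With the neural covariate Trim66 was at 0.30 and not called (adjusted p = 0.383), and neither was Trim6 (1.16, 0.0586). Of the 15 alternatives other than the grouping by treatment field, Trim36 kept its call in 13 and Trim7 in 14. Trim26 kept it in 8, with values from -0.55 to -0.08, and Trim32 in 6, with values from -0.47 to -0.25. The call was kept in 9 for Trim55, 7 for Trim66, 6 for Trim24 and 13 for Trim14.

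Whether the LPS effect itself differed between the arms was tested by the difference of the LPS effects, unshielded minus shielded. Of the 50 members, 2 were higher and 2 lower, against 4.06% and 9.25% of all genes tested. Without shielded LPS library 3 these counts were 7 and 7 of 51 members, beside 2951 higher and 3440 lower of all 19504 genes tested. DESeq2 gave 4 and 4 members, beside 917 higher and 2141 lower over all genes. The comparison shares its libraries with those above. None of the 4 calls held in every alternative: all 4 were lost without the libraries with conflicting fields, as were most calls over all genes. Shielded mice without LPS are left there with 1 library, assumed to vary like the others.

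Trim59, an endoplasmic reticulum protein known to dampen NF-kB and IRF signalling, gave the largest difference. It had 7.73, 9.71 and 9.12 CPM in unshielded mice given LPS, against 11.9, 8.76 and 11.4 CPM in unshielded mice without LPS. Among shielded mice the levels were 0.844, 0.989 and 2.15 CPM with LPS, against 7.995, 6.69 and 10.4 CPM without. The shielded LPS libraries lay below all 9 others, and the unshielded groups overlapped. It fell 6.28-fold in shielded mice (-2.65 ± 0.30 on the log2 scale, adjusted p = 9.88e-06) and was not called in unshielded mice (-0.28 ± 0.27). The difference was 2.37 ± 0.40 (adjusted p = 0.00354), or 2.30 without the conflicting libraries (0.0524). The mean log2 CPM of the neural markers was 2.81, 3.90 and 4.89 in shielded LPS libraries 1 to 3, the last above unshielded LPS library 2 at 4.47. With this level as a covariate the fall in shielded mice was 1.86 (adjusted p = 0.000673).

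Trim37, a ligase of centrosomes and peroxisomes in human cells, had 22.6, 19.5 and 19.6 CPM in unshielded mice given LPS, against 30.1, 31.8 and 30.1 CPM in unshielded mice without LPS. In shielded mice it had 32.4, 27.4 and 32.4 CPM with LPS, against 28.02, 26.0 and 30.3 CPM without. The unshielded LPS libraries lay below all others. It fell by 0.58 ± 0.10 in unshielded mice (adjusted p = 0.000365) and was at 0.13 ± 0.10 in shielded mice, not called, with a difference of -0.71 ± 0.13 (adjusted p = 0.00597), or -0.72 without the conflicting libraries (0.0766).

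Trim14 had 26.8, 26.4 and 20.4 CPM in unshielded mice given LPS, against 16.6, 15.6 and 16.9 CPM in unshielded mice without LPS. Shielded mice had 20.3, 14.96 and 18.7 CPM with LPS, against 18.7, 20.4 and 18.1 CPM without, so that the shielded groups overlapped. It rose by 0.58 ± 0.13 in unshielded mice (adjusted p = 0.00274; 0.28, not called, with library totals) and was at -0.08 in shielded mice, with a difference of 0.66 ± 0.18 (adjusted p = 0.0305). The difference was lost without any 1 of 9 libraries, all but unshielded LPS library 3 and shielded LPS libraries 1 and 3 (0.51 to 0.65, adjusted p 0.0543 to 0.0993), and without the conflicting libraries (0.63, 0.208). Trim14 shares 38.0% of its exon bases with genes on the opposite strand, summed over Nans, Gm22247 and Gm16731. The share of Nans alone was not computed, and the strand setting of the counting is not given in the sources used here. Nans itself had log2 fold changes of 0.02 in unshielded mice, not called, and 0.30 in shielded mice (adjusted p = 0.0148).

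Trim44, a RING-less member that stabilises MAVS in human cells, had 159, 186 and 144 CPM in unshielded mice given LPS, against 135, 132 and 135 CPM in unshielded mice without LPS. Shielded libraries held 304, 260 and 230 CPM with LPS, against 152, 151 and 131 CPM without. The shielded LPS libraries lay above all others. It rose by 0.87 ± 0.12 in shielded mice (adjusted p = 4.21e-05) and was at 0.28 ± 0.12 in unshielded mice, not called, with a difference of -0.58 ± 0.17 (adjusted p = 0.037). That call was lost without any 1 of 10 libraries, all but shielded LPS library 3 and unshielded LPS library 2 (-0.66 to -0.51, adjusted p 0.054 to 0.0878), and with the neural covariate (-0.34, 0.0704).

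**Figure D4:**
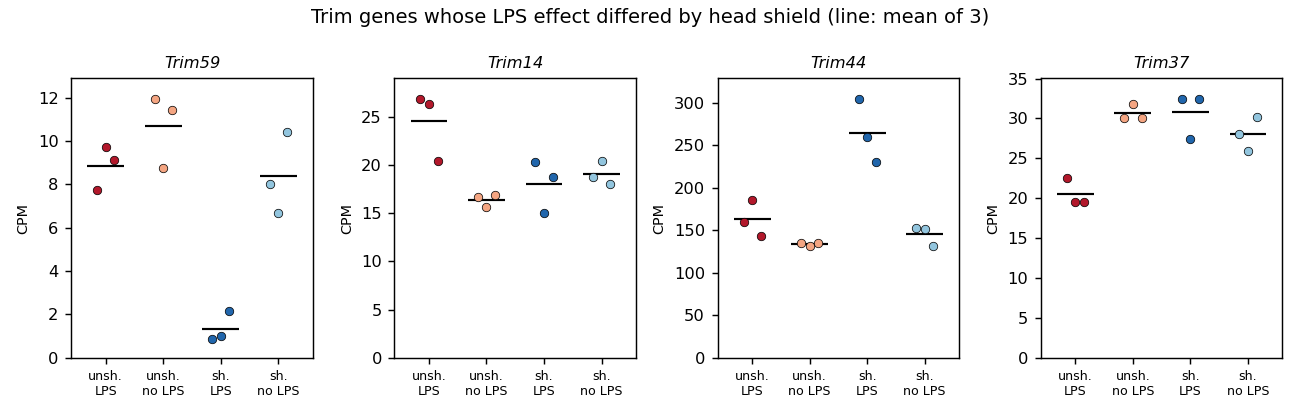
CPM of Trim59, Trim14, Trim44 and Trim37 in the 12 libraries (points) by group, with a line at the mean of 3. Trim59 stands at 0.844 to 2.15 CPM in shielded mice given LPS, against 6.69 CPM or more in every other library, and Trim44 at 230 to 304 CPM in the same group, above every other library.

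Promoter windows were matched for 52 of the 67 members, in 66 windows. The interferon-stimulated core (GAAA, any 2 bases, GAAA), on either strand, was found in 9 members, and in 15.2% of the member windows, against 3.44% of all 32841 RefSeq windows of the same length. Of the members that rose with LPS and had a window, 6 of 12 held it in unshielded mice and 7 of 15 in shielded mice. No member that fell held it (0 of 9 and 0 of 12), and of those tested but not called, 3 of 17 and 2 of 11 held it. In Trim2, Trim12a, Trim21 and Trim34a the match lies 10 to 28 bases after the start. The 9 are Trim2, Trim5, Trim12a, Trim12c, Trim21, Trim26, Trim30a, Trim30d and Trim34a, and several of these are neighbours on chromosome 7, so the windows are not independent. TTCNNNGAA, the core bound by STAT factors, was in 10.6% of member windows and 8.3% of all windows, and an NF-kB type core (GGG, any 2 bases, TTTCC) was in none of the member windows and in 1.63% of all. A match is a description of the letters, and the absence of one says nothing about the factor.

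Levels between genes were compared as CPM per kilobase of exon. In shielded mice without LPS the highest were Trim8 (48.9), Trim28 (42.7), Trim44 (25.7), Trim47 (18.6), Trim41 (18.5) and Trim30a (18.4). In both groups given LPS Trim30a came first, at 66.6 in unshielded and 84.9 in shielded mice, ahead of Trim28 (49.3 and 72.7) and Trim8 (42.4 and 48.0). Trim25 had rank 4 in unshielded mice given LPS (29.9) and rank 7 in shielded mice given LPS (19.7). The remaining 17 members had at most 17 counts in any library and were not tested: Trim10, Trim29, Trim31, Trim34b, Trim38, Trim40, Trim42, Trim43b, Trim50, Trim52, Trim54, Trim58, Trim60, Trim63, Trim69, Trim75 and Trim80. Without the filter on low counts, edgeR called 3 of them, chosen for naming after their values were seen: Trim10, Trim50 and Trim63 were higher in unshielded than in shielded mice after LPS (adjusted p = 0.0334, 0.0338 and 0.0347), and Trim10 was lower with LPS in shielded mice (0.0333). Of all 36491 genes in that fit, 3550 were higher in the first comparison and 6708 lower in the second. The median log2 fold change of all genes was 0.40 and -0.45 in these comparisons, in the direction of the calls. The 3 calls after LPS rest on 4 to 11 raw counts per library in unshielded mice given LPS, against 0 to 2 in shielded mice given LPS, whose libraries were smaller. The Trim10 call in shielded mice rests on 0 to 1 counts per library with LPS, against 2 to 6 without. For these reasons no fold change is given.

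Genes that work with Trim proteins were read from lists. Of the 5 tripartite motif genes with another symbol, 3 rose and 1 fell in unshielded mice, with log2 fold changes from -0.83 to 3.54. In shielded mice 3 rose and 2 fell, from -1.56 to 3.22. Over all genes 24.3% and 32.4% rose, and 18.8% and 35.1% fell, in unshielded and shielded mice. Mefv, which encodes pyrin, rose by 3.54 ± 0.32 in unshielded and 3.22 ± 0.32 in shielded mice, and Pml, the scaffold of nuclear bodies, by 0.97 ± 0.14 and 0.83 ± 0.14 (0.32 in shielded mice with the neural covariate, adjusted p = 0.0539). Of 20 genes of RIG-I and cGAS sensing, 10 rose in unshielded and 16 in shielded mice and none fell, against 24.3% and 32.4% of all genes that rose. With library totals 9 rose and 3 fell in unshielded mice and 11 rose and 3 fell in shielded mice, and with the neural covariate 8 rose and 2 fell in shielded mice. Ddx58, which encodes RIG-I, rose by 1.66 ± 0.12 and 1.76 ± 0.12, and Ifih1, which encodes MDA5, by 2.04 ± 0.15 and 2.21 ± 0.15. Ikbke, a kinase that activates IRF3, rose by 3.84 ± 0.32 and 6.02 ± 0.36, a difference of -2.18 ± 0.45 (adjusted p = 0.0113) that was lost without the conflicting libraries (-2.03, 0.167). Of 14 ubiquitin-activating and conjugating enzymes, 10 rose in unshielded and 11 in shielded mice, and 1, Uba7, fell in shielded mice (5 rose and 1 fell in unshielded, and 11 rose and 2 fell in shielded mice, with library totals). Of 9 deubiquitinases, 6 rose in unshielded and 7 in shielded mice and none fell (4 rose and 1 fell, and 7 rose and 1 fell, with library totals), among them Usp18, which removes ISG15 (1.93 ± 0.16 and 2.58 ± 0.17), and Tnfaip3, which encodes A20 (1.95 ± 0.24 and 1.93 ± 0.24).

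Of the 14 ubiquitin enzymes, 4 had a lower and 1 a higher LPS effect in unshielded than in shielded mice, against 9.25% and 4.06% of all genes. Ube2n and its partner Ube2v2, which together build chains linked through lysine 63, had log2 fold changes of 0.32 ± 0.09 and 0.29 ± 0.10 in unshielded mice and 0.98 ± 0.09 and 0.94 ± 0.10 in shielded mice. The unshielded values are borderline: Ube2n was lost without unshielded LPS library 1 or library 1 or 3 of the unshielded mice not given LPS (0.0735 to 0.088), Ube2v2 without any 1 unshielded library (0.0673 to 0.204), and with library totals they were at 0.03 and -0.01. The differences of LPS effects were -0.65 ± 0.13 for Ube2n (adjusted p = 0.007), -0.65 ± 0.15 for Ube2v2 (0.0137), -0.68 ± 0.13 for Ube2k (0.00641) and -0.46 ± 0.12 for Ube2w (0.0225). Uba7, which activates ISG15, differed by 0.61 ± 0.14 (0.0131). All 5 missed the threshold without the conflicting libraries (adjusted p 0.107 to 0.279). Ube2w was also lost without shielded library 2 without LPS (0.0598), and Uba7 without shielded LPS library 2 (0.0556) or unshielded library 2 without LPS (0.0558).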

How the data were processed

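RNA from CD11b-selected brain cells was amplified linearly before sequencing, per the labels' protocols, which can distort relative levels of long and short transcripts. The values are whole-number gene counts as deposited; per the submitters' processing notes they come from FastQC, STAR and HTSeq on mouse build mm9, with versions, annotation and strand setting not given in the sources used here. Library totals ran from 18090977 to 60495968 counts, and replicates differed beyond sampling noise (chi-square per degree of freedom at least 12.48). All 12 libraries entered 1 model in edgeR 4.0.16 (R 4.3.3, limma 3.58.1), with TMM scaling, filterByExpr (minimum count 10, minimum total 15), robust quasi-likelihood tests, 2-sided, and Benjamini-Hochberg adjustment over 18875 genes at 0.05. CPM use TMM scaling. The procedure was tested on simulated data.

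The groups follow the sample titles, and 0 per-sample columns were left unused. Alternatives were size factors or library totals, no filter, DESeq2 1.42.0, leaving out libraries, replicate blocks, the compared groups alone, and the mean log2 CPM of neuron and oligodendrocyte markers (prior count 2) as a covariate. Deviations from the group mean had correlations of 0.112, 0.194 and 0.547 between same-numbered shielded libraries with and without LPS. Differently numbered ones had correlations from -0.483 to 0.399, so the numbers do not clearly mark pairs. No label pairs the libraries, the main model was unpaired, and the replicate blocks were alternatives. Named members were those with the 10 smallest p in each direction of a comparison and the members of the role groups. Members and lists were chosen with earlier results of these data known. Promoter windows come from RefSeq (GRCm38.p6), a build other than that of the counts, and exon lengths and overlaps from a GENCODE annotation of that newer build.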

Additional observations from a re-analysis of the deposited data

Results flagged for a closer look

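In 4 members the LPS effect differed between unshielded and shielded mice by edgeR's test of the difference itself. The difference, unshielded minus shielded on the log2 scale, was 2.37 for Trim59, 0.66 for Trim14, -0.71 for Trim37 and -0.58 for Trim44. Each missed the adjusted threshold when the libraries with conflicting treatment fields were left out, with values of 2.30, 0.63, -0.72 and -0.52.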

How the results depend on the processing

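Leaving out each library in turn moved the counts of called members to 12 to 15 higher and 7 to 11 lower for LPS in unshielded mice (14 and 11 with all libraries), and to 14 to 18 and 12 to 14 in shielded mice (15 and 15). Between unshielded and shielded mice they ran over 0 to 1 and 1 to 3 without LPS (2 and 4) and 9 to 14 and 9 to 16 after LPS (12 and 12), and for the difference of LPS effects over 1 to 7 in either direction (2 and 2). Of the called values, 20 of 30 for LPS in shielded mice, 15 of 25 in unshielded mice, 13 of 24 after LPS, 1 of 6 without LPS and 0 of 4 differences held in every alternative other than the grouping by treatment field.

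Size factors gave 1 higher member without LPS, as did no filter and the replicate block over all 12 libraries, and no filter gave 1 lower difference. Library totals gave 29 lower in shielded mice, 9 higher in unshielded mice and 2 lower without LPS, and turned Trim11 (-0.28), Trim26 (-0.01), Trim35 (-0.23) and Trim39 (-0.23) in shielded and Trim35 (-0.19) in unshielded mice; by construction, the median of all genes shifts with this scaling. Leaving out the conflicting libraries leaves shielded mice without LPS with 1 library. In that fit fewer members fell in shielded mice, most calls without LPS were lost and every difference lost its call. Calls over all genes became fewer in the same comparisons. Grouping the conflicting libraries by treatment field, which also leaves that group with 1 library, lost nearly all calls of members and most calls over all genes. It turned Trim6 (0.42) and Trim71 (0.15) for LPS in shielded mice and Trim24 (-0.19), Trim30a (0.15) and Trim47 (-0.14) after LPS. The replicate block in the compared groups alone gave 7 lower after LPS, where same-numbered libraries had correlations of -0.264, 0.152 and 0.478. Across comparisons this block kept 73 of 84 calls, against 74 of 84 in the same groups without the block. The neural covariate gave 1 lower difference and turned Trim9 (0.034), Trim26 (-0.13) and Trim71 (0.019) in shielded mice, and DESeq2 gave 4 higher and 4 lower differences. Where no construction is named, the cause was not tested. With 3 libraries a group, members under about 1 CPM, such as Trim55 and Trim71, rest on few counts.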
